A study of Mus musculus with 16 samples.

Results

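The collagen genes encode the alpha chains of the collagens, the most abundant proteins of the extracellular matrix. They were taken as the rows of the count table whose gene name consists of Col, a number, the letter a and a second number. The rule found 44 of 38720 genes in the table. Libraries came from adipose progenitors, the fat-resident cells that can become adipocytes, of mice aged 4 weeks, with n = 4 libraries per group and 16 in all. The groups were subcutaneous (SAT) and visceral (VAT) progenitors of Nr4a1+/+ wild type mice (WT) and of Nr4a1-/- mice (KO), whose genotype is labelled B6;129S2-Nr4a1tm1Jmi/J. The strain is labelled C57BL/6J for every sample, no treatment is named, and sex and pooling of animals were not stated in the labels. Library names carry the word MACS, with no further detail of the purification. Any 129S2 DNA that the knockout mice carry and the loss of Nr4a1 cannot be told apart. Nr4a1 encodes an orphan nuclear receptor that binds DNA and is induced rapidly by many stimuli. The comparisons asked which collagen genes differed between WT and KO progenitors of each depot and between the depots.

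Each collagen molecule is a helix of alpha chains wound around each other, and the chain genes in use set which type of fibre or sheet a cell can build. Fibrillar collagens such as types I, III and V form the rope-like fibres of connective tissue. Type IV chains form the mesh of basement membranes, type VI chains form beaded filaments around cells, and FACIT collagens (fibril-associated collagens with interrupted triple helices) decorate fibres. In fat, progenitors of the stroma make most of the fibrillar collagen, while each adipocyte is wrapped in a basement membrane with type VI filaments. In fibroblasts the receptor NR4A1 is known as a brake on matrix production driven by TGF-beta. These statements are background and not results of these data.

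Libraries held from 34655519 to 55551845 counts. Levels are given as CPM, which scales each library's counts to a common total after TMM correction for a few very abundant genes. Libraries are named by group and replicate number, as in WT SAT 3. Of the 44 collagen genes 43 passed the filter on low counts, and Col10a1, a chain of cartilage growth zones, did not, with 0 to 13 counts per library. Nr4a1 stood at 997 to 1211 CPM in WT SAT and 195 to 209 CPM in KO SAT, and at 1431 to 1648 CPM in WT VAT and 297 to 327 CPM in KO VAT. Summed over 8 progenitor markers, among them the matrix gene Dcn and the progenitor surface markers Cd34 and Pdgfra, libraries held 15827 to 21624 CPM (WT) and 15918 to 17597 CPM (KO) in SAT. In VAT they held 13406 to 14243 CPM (WT) and 10659.7 to 12068 CPM (KO). WT SAT 3 stood apart from its group, with a mean correlation of log2 CPM across genes of 0.976 to its own group. The other WT SAT libraries had 0.985 to 0.986. KO VAT 4 had 0.981, slightly below the 0.984 to 0.985 of the other KO VAT libraries, and WT VAT 4 had 0.982. The labels call the 4 libraries of a group biological replicates without tying them to animals. P-values thus reflect spread among these samples alone, and that spread may be technical. Changes are log2 fold changes ± SE, and adjusted p comes from edgeR's quasi-likelihood test with Benjamini-Hochberg adjustment over all 16842 genes tested, with calls made under 0.05.

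Collagen transcripts took a large part of each library, and 3 fibrillar genes held most of it. All collagen genes together took 16.9% ± 1.94 (SD, n = 4) of the counts in WT SAT against 8.04% ± 0.645 in WT VAT. In KO they took 20.02% ± 0.794 in SAT and 9.71% ± 0.631 in VAT. Col1a1, Col1a2 and Col3a1, the chains of type I and type III collagen, made up 82.4% ± 1.50 of all collagen counts in WT SAT and 85.2% ± 1.66 in KO SAT. In VAT the same genes made up 64.3% ± 0.954 in WT and 68.8% ± 1.28 in KO. Ranks between genes are given as RPKM, which divides CPM by transcript length in kilobases. Col3a1, Col1a2, Col1a1, Col6a1 and Col6a2 ranked 1 to 5 in that order in every group. In WT SAT the group means were 13604 ± 1489.5 RPKM for Col3a1, 7390.4 ± 538 for Col1a2 and 6795 ± 765 for Col1a1. Within every library of all groups Col1a1 was below Col1a2 per transcript length, with ratios of 0.847 to 0.957 in WT SAT. Col6a1 at 1072 ± 136 RPKM and Col6a2 at 1022 ± 112 RPKM, neighbours on chromosome 10 whose products assemble together, had ratios of 0.982 to 1.09 within the WT SAT libraries. Col4a1 followed at rank 6 in WT SAT and in both VAT groups and at rank 8 in KO SAT. The fibrillar genes Col2a1 and Col24a1, the FACIT genes Col9a1 and Col22a1 and the transmembrane genes Col17a1 and Col25a1 had group means below 3 CPM in every group.

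**Figure D1:**
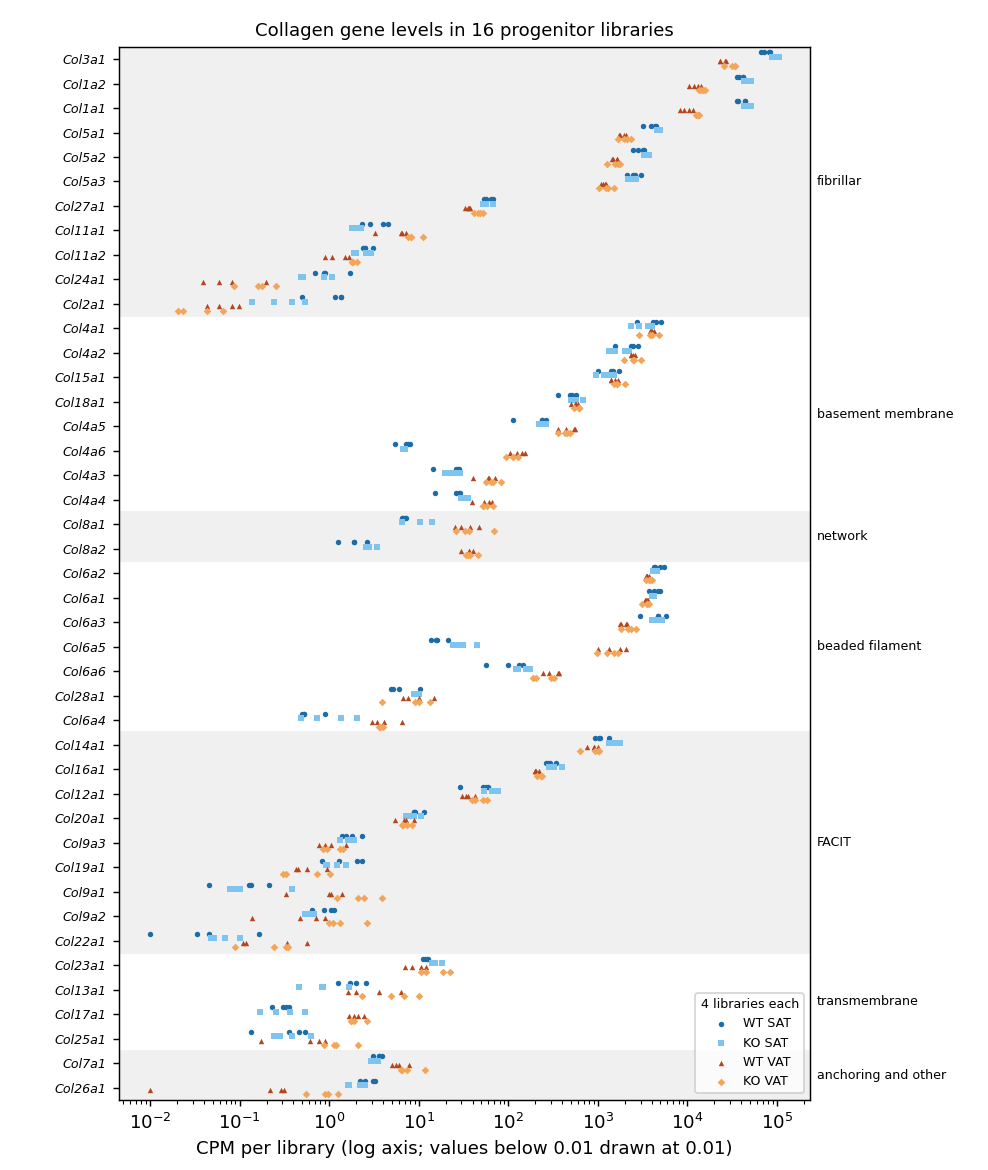
CPM of the 43 tested collagen genes in each of the 16 libraries on a log axis, grouped by class, with 1 symbol per library and 4 libraries per group. The highest symbol of Col3a1 is at 104748 CPM, and the visceral symbols lie left of the subcutaneous ones for Col1a1, Col1a2 and Col3a1 and right of them for Col6a5, Col4a6 and Col8a2.

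Because the targeted gene encodes a DNA-binding receptor, the stretch before each start site was read for its NBRE element AAAGGTCA, and for common promoter elements: the TATA box, spelled TATAAA, the CAAT box, spelled CCAAT, and the GC box, spelled GGGCGG. Windows were the 250 bases before each RefSeq start (GRCm38.p6, the assembly of mm10), both strands were read, and no element contains another. Of the 44 collagen genes 35 matched the RefSeq table, with 38 windows. NBRE letters stood in 2 of these windows, against 1.34% of 32851 windows of all genes. TATA box letters stood in 5 of the collagen windows against 12.4% of all, CAAT box letters in 13 against 33.8%, and GC box letters in 22 against 32.7%. A match describes letters only, and the windows say nothing of binding elsewhere. The windows of 5 genes are printed 5′ to 3′ on the gene's strand, with matched letters in capitals. Col3a1, the most abundant collagen gene, lies at chr1:45311538-45349706 on the plus strand, and its window chr1:45311288-45311537 holds a TATA box 112 bases before the start.
Col3a1: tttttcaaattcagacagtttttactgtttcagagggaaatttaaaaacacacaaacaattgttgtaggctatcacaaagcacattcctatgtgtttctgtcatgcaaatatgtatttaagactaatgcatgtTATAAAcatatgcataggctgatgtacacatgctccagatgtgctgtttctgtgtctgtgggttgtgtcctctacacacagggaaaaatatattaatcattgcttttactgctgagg
Col6a5 and Col4a6 had the largest depot differences of their classes, and their windows chr9:105960644-105960893 and chrX:141474077-141474326 (both minus strand) hold a GC box and no TATA box.
Col6a5: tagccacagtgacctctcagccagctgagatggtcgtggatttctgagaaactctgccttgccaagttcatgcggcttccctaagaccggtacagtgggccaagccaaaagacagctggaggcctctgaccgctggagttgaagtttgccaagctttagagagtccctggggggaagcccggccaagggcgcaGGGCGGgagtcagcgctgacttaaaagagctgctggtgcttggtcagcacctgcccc
Col4a6: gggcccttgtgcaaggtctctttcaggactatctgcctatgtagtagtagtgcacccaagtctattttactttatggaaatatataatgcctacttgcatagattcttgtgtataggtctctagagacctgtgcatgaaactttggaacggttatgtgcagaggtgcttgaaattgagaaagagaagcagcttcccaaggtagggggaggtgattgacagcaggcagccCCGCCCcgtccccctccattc
Col23a1 and Col24a1 are the genes with NBRE letters, in the windows chr11:51289670-51289919 and chr3:145292222-145292471 (both plus strand), where the elements end 210 and 133 bases before the start.
Col23a1: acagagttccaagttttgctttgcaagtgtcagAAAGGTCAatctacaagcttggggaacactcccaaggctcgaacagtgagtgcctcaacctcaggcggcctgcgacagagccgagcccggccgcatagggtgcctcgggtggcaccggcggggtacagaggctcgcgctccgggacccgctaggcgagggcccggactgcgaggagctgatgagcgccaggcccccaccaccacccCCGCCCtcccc
Col24a1: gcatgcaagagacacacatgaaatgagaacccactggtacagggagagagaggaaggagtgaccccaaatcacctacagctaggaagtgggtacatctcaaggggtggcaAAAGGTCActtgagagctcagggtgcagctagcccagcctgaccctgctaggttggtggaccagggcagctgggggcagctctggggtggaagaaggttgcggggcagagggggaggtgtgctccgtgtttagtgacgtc
Neither gene was called between KO and WT in either depot in the main edgeR fit. Another method, DESeq2, called Col23a1 higher in KO VAT, as did edgeR with libraries scaled by their totals alone. It was also called higher in VAT without WT SAT 3, WT VAT 3, KO VAT 1 or KO VAT 3. Col23a1, a transmembrane collagen, had log2 fold changes of 0.38 ± 0.20 in SAT (adjusted p = 0.272) and 0.73 ± 0.20 in VAT (adjusted p = 0.0511), and Col24a1, a minor fibrillar collagen, had -0.50 ± 0.41 (adjusted p = 0.486) and 0.86 ± 0.54 (adjusted p = 0.453).

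Between the depots, progenitors differed by collagen class. In WT, 10 of 11 fibrillar genes were lower in VAT than in SAT, with Col11a1 higher. Of 6 type IV genes 4 were higher, all but Col4a1 and Col4a2, as were both type VIII genes and Col6a4, Col6a5 and Col6a6. Of the 43 tested collagen genes 14 rose and 18 fell in VAT against SAT in WT, 74.4% of them, where 36.7% of all tested genes were called (19.1% higher and 17.6% lower). The median log2 fold change of the collagen genes was -0.29, against -0.0044 over all tested genes. In KO, 19 rose and 15 fell, 79.1% of them against 43.3% of all tested genes (23.3% higher and 20.0% lower), with a median of 0.022 against 0.0174 over all genes. The contrasts share no library, but both come from the same fit with a common estimate of the spread. All 14 genes that rose in WT also rose in KO, 73.7% of those called higher there. Of the 18 that fell in WT, 13 (72.2%) fell in KO, 86.7% of those called lower there. The share of all tested genes with calls in both genotypes was not counted. Whether collagen genes were shared more often than other genes is thus not known. In RNA from whole cell samples, fewer cells of a type and less RNA per cell cannot be told apart.

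Fibrillar collagens carried the largest part of the depot difference in counts. As a share of all counts in a library, the class took 15.8, 14.4, 12.7 and 16.1% in the WT SAT libraries and 5.95, 6.26, 5.39 and 5.15% in the WT VAT libraries. In KO the shares were 16.7, 19.1, 17.9 and 18.3% in SAT and 7.65, 7.46, 7.19 and 6.65% in VAT, and the depots did not overlap in either genotype. Of 11 fibrillar genes, 10 fell and 1 rose in VAT in WT, and 9 fell and 1 rose in KO. Col1a1 (chr11:94936224-94953042, plus strand), the alpha1 chain of type I collagen, stood at 44005, 37228, 35591 and 44349 CPM in WT SAT and 10523, 11564, 9159 and 8315 CPM in WT VAT. In KO it stood at 42405, 50927, 47339 and 48498 CPM in SAT and 13376, 13295, 13082 and 12363 CPM in VAT. Every visceral library was far below every subcutaneous one, by a log2 fold change of -2.03 ± 0.11 in WT (4.07-fold, adjusted p = 4.72e-10) and -1.86 ± 0.11 in KO (3.63-fold, adjusted p = 1.09e-09). Its partner Col1a2, the alpha2 chain, stood at 42081, 36288, 37919 and 41808 CPM in WT SAT and 13139, 14045, 11867 and 10542 CPM in WT VAT. In KO the Col1a2 values were 42527, 51940.0, 46219 and 49218 CPM in SAT and 15856, 14947, 14233 and 13445 CPM in VAT. Again no visceral library reached a subcutaneous one, with changes of -1.67 ± 0.11 in WT (adjusted p = 1.86e-09) and -1.70 ± 0.11 in KO (adjusted p = 1.35e-09).

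Col3a1, the single chain of type III collagen, stood at 81915, 71679, 65962 and 83213 CPM in WT SAT and 26234, 26748, 23089.7 and 22989.7 CPM in WT VAT. The KO libraries held 88426, 104748, 93336 and 98219.8 CPM in SAT and 33962, 33632, 31442 and 25901 CPM in VAT. It fell in VAT 3.06-fold in WT (-1.61 ± 0.11, adjusted p = 6.38e-09) and 3.08-fold in KO (-1.62 ± 0.11, adjusted p = 5.23e-09), with no overlap between depots. The type V chains, which start and limit the width of type I fibres, fell by smaller factors. Col5a1 stood at 4402, 3903, 3178 and 4506 CPM in WT SAT and 1984, 2053, 1749 and 1744 in WT VAT (-1.09 ± 0.12, adjusted p = 1.04e-06). In KO Col5a1 stood at 4525, 5009.7, 4541 and 4701 CPM in SAT and 2103, 2330.0, 1986 and 1672 in VAT (-1.21 ± 0.12, adjusted p = 2.27e-07). Col5a2, which lies beside Col3a1 on chromosome 1 with 24614 bases between them, stood at 3238, 2831, 2461 and 3289 CPM in WT SAT and 1621, 1626, 1482 and 1436 in WT VAT (-0.94 ± 0.11, adjusted p = 3.01e-06). In KO Col5a2 stood at 3389, 3709.9, 3241 and 3409 CPM in SAT and 1702, 1788, 1543 and 1275 in VAT (-1.12 ± 0.11, adjusted p = 3.04e-07). No type V chain overlapped between the depots in either genotype. Col5a3 held 2633, 2453, 2099 and 3013 CPM in WT SAT and 1077, 1190.4, 1146 and 1243 in WT VAT (-1.13 ± 0.12, adjusted p = 1.00e-06). In KO Col5a3 stood at 2687, 2175, 2413 and 2367 CPM in SAT and 1229, 1535, 1286 and 1038 in VAT (-0.92 ± 0.12, adjusted p = 7.81e-06). Col27a1, a thin-fibril collagen best known from cartilage, stood at 56.4, 67.9, 54.3 and 64.3 CPM in WT SAT and 32.5, 37.1, 35.8 and 36.4 in WT VAT, a change of -0.78 ± 0.09 (adjusted p = 3.97e-06). In KO its change was -0.31 ± 0.09 (adjusted p = 0.0111), and the sign turned to 0.0336 (adjusted p = 0.8) when libraries were scaled by their totals alone.

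Among the rare fibrillar chains, Col2a1 and Col24a1 were lower in VAT at levels of at most 1.71 CPM in any library. Col2a1, the main cartilage collagen, had log2 fold changes of -3.88 ± 0.49 in WT (adjusted p = 7.15e-06) and -3.00 ± 0.56 in KO (adjusted p = 0.000345). The exception to the class was Col11a1, a chain that nucleates fibrils in cartilage and other tissues. It stood at 2.26, 1.81, 2.18 and 2.03 CPM in KO SAT and 8.19, 8.20, 7.67 and 11.2 CPM in KO VAT, 4.25-fold higher in VAT with no overlap (2.09 ± 0.24, adjusted p = 1.90e-06). In WT it stood at 2.88, 4.01, 2.30 and 4.50 CPM in SAT and 7.26, 6.37, 6.55 and 3.27 CPM in VAT, where 1 visceral library lay among the subcutaneous ones (0.77 ± 0.23, adjusted p = 0.0149). The WT call was lost without WT VAT 1 (adjusted p = 0.0554) and in a fit to the WT libraries alone (0.0573). Its partner Col11a2 went the other way in WT (-1.03 ± 0.20, adjusted p = 0.000642) and was not called in KO (-0.34 ± 0.20, adjusted p = 0.189).

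**Figure D2:**
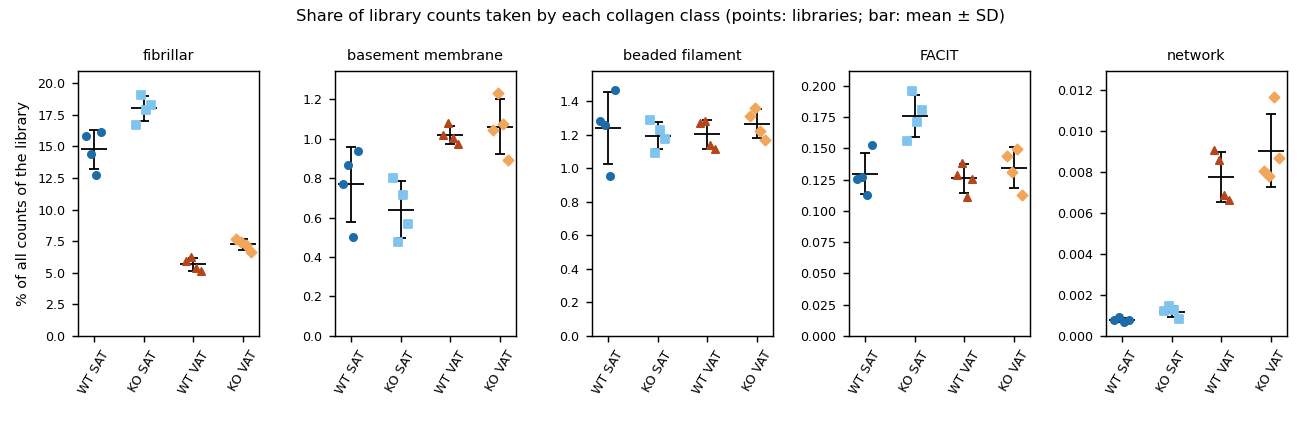
Share of each library's counts, in percent, taken by 5 collagen classes, with 1 point per library and bars for the mean ± SD of 4 libraries. Fibrillar shares fall from 12.7% or more in every subcutaneous library to 7.65% or less in every visceral one, while basement membrane and network shares stand higher in VAT. Shares are of raw counts without TMM scaling, so a lower fibrillar share raises the others. The most abundant basement membrane genes, Col4a1, Col4a2 and Col15a1, were not called between depots in WT.

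Basement membrane collagens split by gene pair. The ubiquitous type IV chains Col4a1 and Col4a2, which make up the standard mesh, were not called between depots in WT. Col4a1 (chr8:11198423-11312826, minus strand) stood at 4092, 4442, 2737 and 5134 CPM in WT SAT and 4046, 4277, 3886 and 3868 CPM in WT VAT. Its KO values were 4064, 2377, 3628 and 2862 CPM in SAT and 3862, 4765, 4062 and 2896 CPM in VAT. The depots overlapped in both genotypes, and the intervals of the log2 difference ran from -0.44 to 0.38 in WT and from -0.14 to 0.68 in KO. Col4a2 was called higher in VAT in KO (0.48 ± 0.18, adjusted p = 0.0387, against 0.10 ± 0.18 in WT), and the difference between genotypes was not called (adjusted p = 0.460). The 4 other type IV chains, which form the specialised meshes of kidney, lung, eye and smooth muscle, all rose in VAT in both genotypes. Col4a6 (X chromosome) stood at 7.94, 7.63, 5.47 and 7.21 CPM in WT SAT and 154, 144, 126 and 104 CPM in WT VAT. In KO it stood at 6.60, 6.86, 7.01 and 7.11 CPM in SAT and 113, 94.7, 112 and 127 CPM in VAT. The lowest visceral library was more than an order of magnitude above the highest subcutaneous one, with 18.6-fold in WT (4.22 ± 0.14, adjusted p = 1.20e-12) and 16.2-fold in KO (4.02 ± 0.14, adjusted p = 1.59e-12). Its head-to-head neighbour Col4a5, whose start lies 1309 bases away, stood at 214 ± 69.3 CPM in WT SAT and 473 ± 92.3 CPM in WT VAT and rose by 1.14 ± 0.20 in WT (adjusted p = 0.000250) and 0.86 ± 0.20 in KO (adjusted p = 0.00218).

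Col4a3 and Col4a4, whose starts lie 72 bases apart on chromosome 1, rose together. Col4a3 stood at 25.0, 19.9, 29.3 and 21.5 CPM in KO SAT and 67.7, 83.9, 64.8 and 56.3 CPM in KO VAT (1.51 ± 0.20, adjusted p = 1.06e-05), with 1.27 ± 0.20 in WT (adjusted p = 7.90e-05). Col4a4 rose by 1.15 ± 0.18 in WT (adjusted p = 5.44e-05) and 0.84 ± 0.17 in KO (adjusted p = 0.000805). Exons of Col4a1 and Col4a2 share 22 bases on opposite strands and those of Col4a3 share 563 bases with C430014B12Rik, and the library kit does not mark strand, so reads there cannot be assigned. Col15a1 and Col18a1, collagens that carry sugar chains in vascular and other basement membranes, were not called in WT (0.09 ± 0.16 and 0.21 ± 0.12). In KO Col15a1 rose by 0.47 ± 0.16 (adjusted p = 0.0226), and Col18a1 was not called (0.07 ± 0.12). The calls in KO were lost for Col4a2 without KO SAT 2 or 4 or KO VAT 1, 2 or 3 (adjusted p between 0.0613 and 0.131) or with the replicate number as a block (0.0573), and for Col15a1 without KO SAT 2 or 4 or KO VAT 2 (adjusted p between 0.0589 and 0.0843).

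Type VIII collagen forms hexagonal networks in the matrix of vessels and the eye. Its genes Col8a1 and Col8a2 were the 2 network collagens that could be tested, and both rose in VAT. Col8a2 stood at 1.87, 2.68, 1.27 and 1.89 CPM in WT SAT and 36.4, 40.5, 36.5 and 29.9 CPM in WT VAT. In KO it stood at 2.76, 2.62, 3.47 and 2.60 CPM in SAT and 35.3, 37.2, 33.9 and 46.6 CPM in VAT. The depots were well separated, by 18.4-fold in WT (4.20 ± 0.18, adjusted p = 1.56e-11) and 13.3-fold in KO (3.74 ± 0.17, adjusted p = 4.11e-11). Col8a1 stood at 7.01, 7.14, 6.67 and 6.58 CPM in WT SAT and 46.7, 37.9, 25.4 and 29.5 CPM in WT VAT (2.35 ± 0.29, adjusted p = 4.62e-06), and it was 3.99-fold higher in VAT in KO (adjusted p = 1.61e-05).

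Type VI collagen showed the widest contrast between chains. The standard chains Col6a1, Col6a2 and Col6a3 assemble with each other, while Col6a4, Col6a5 and Col6a6 are later described relatives of Col6a3 that lie next to each other on chromosome 9. Col6a5 (chr9:105856078-105960643, minus strand) stood at 21.2, 16.0, 13.7 and 15.4 CPM in WT SAT and 2091, 1792, 1351 and 1012 CPM in WT VAT. In KO it stood at 23.9, 45.1, 31.0 and 27.4 CPM in SAT and 1683, 1502, 990.0 and 1262 CPM in VAT. The lowest visceral library exceeded the highest subcutaneous one by a wide margin, and the gene was 93.9-fold higher in WT (6.55 ± 0.29, adjusted p = 2.84e-11) and 42.7-fold higher in KO (5.42 ± 0.27, adjusted p = 1.28e-10). Its flanking genes rose by smaller factors. Col6a4 rose by 2.79 ± 0.37 in WT (adjusted p = 1.06e-05) and 1.70 ± 0.34 in KO (adjusted p = 0.000578), from 0.501 to 0.893 CPM in WT SAT to 2.99 to 6.45 CPM in WT VAT. Col6a6 rose by 1.53 ± 0.25 in WT (adjusted p = 0.000111) and 0.81 ± 0.25 in KO (adjusted p = 0.0135; 0.0506 without KO VAT 2), from 55.9 to 146 CPM in WT SAT to 245 to 369.9 CPM in WT VAT.

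The standard chains were lower in VAT in WT. Col6a3 fell by 1.23 ± 0.16 on the log2 scale in WT (adjusted p = 1.23e-05) and by 1.06 ± 0.16 in KO (adjusted p = 4.29e-05), from 2959 to 5789 CPM in WT SAT to 1791 to 2128 CPM in WT VAT. Col6a2 stood at 4918, 4407, 4276 and 5418 CPM in WT SAT and 3553, 3732, 3459 and 3537 CPM in WT VAT (-0.41 ± 0.08, adjusted p = 0.000844). In KO, with 4568, 4164, 4322 and 4283 CPM in SAT and 3734, 4076, 3876 and 3430.5 CPM in VAT, it was not called (-0.20 ± 0.08, adjusted p = 0.0669). Col6a1 stood at 4669, 4227, 3701 and 4988 CPM in WT SAT and 3579, 3674, 3355 and 3441 CPM in WT VAT (-0.32 ± 0.09, adjusted p = 0.00907). In KO it stood at 4273, 4045, 4105 and 4048 CPM in SAT and 3579, 3719, 3583 and 3087 CPM in VAT (-0.24 ± 0.09, adjusted p = 0.0415). These small differences depended on scaling: by library totals alone neither chain was called in WT (adjusted p = 0.821 for Col6a1 and 0.236 for Col6a2), and Col6a1 in KO turned to 0.1055 (adjusted p = 0.297). Without WT VAT 1, any KO SAT library or KO VAT 1, 3 or 4 the KO call of Col6a1 was also lost (adjusted p between 0.0503 and 0.118), as it was with no filter (0.102) and with the replicate number as a block over all libraries (0.0579) or within genotype (0.0557). Col28a1, a relative of type VI found around Schwann cells, was not called in either genotype (0.55 ± 0.31 and -0.10 ± 0.31).

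**Figure D3:**
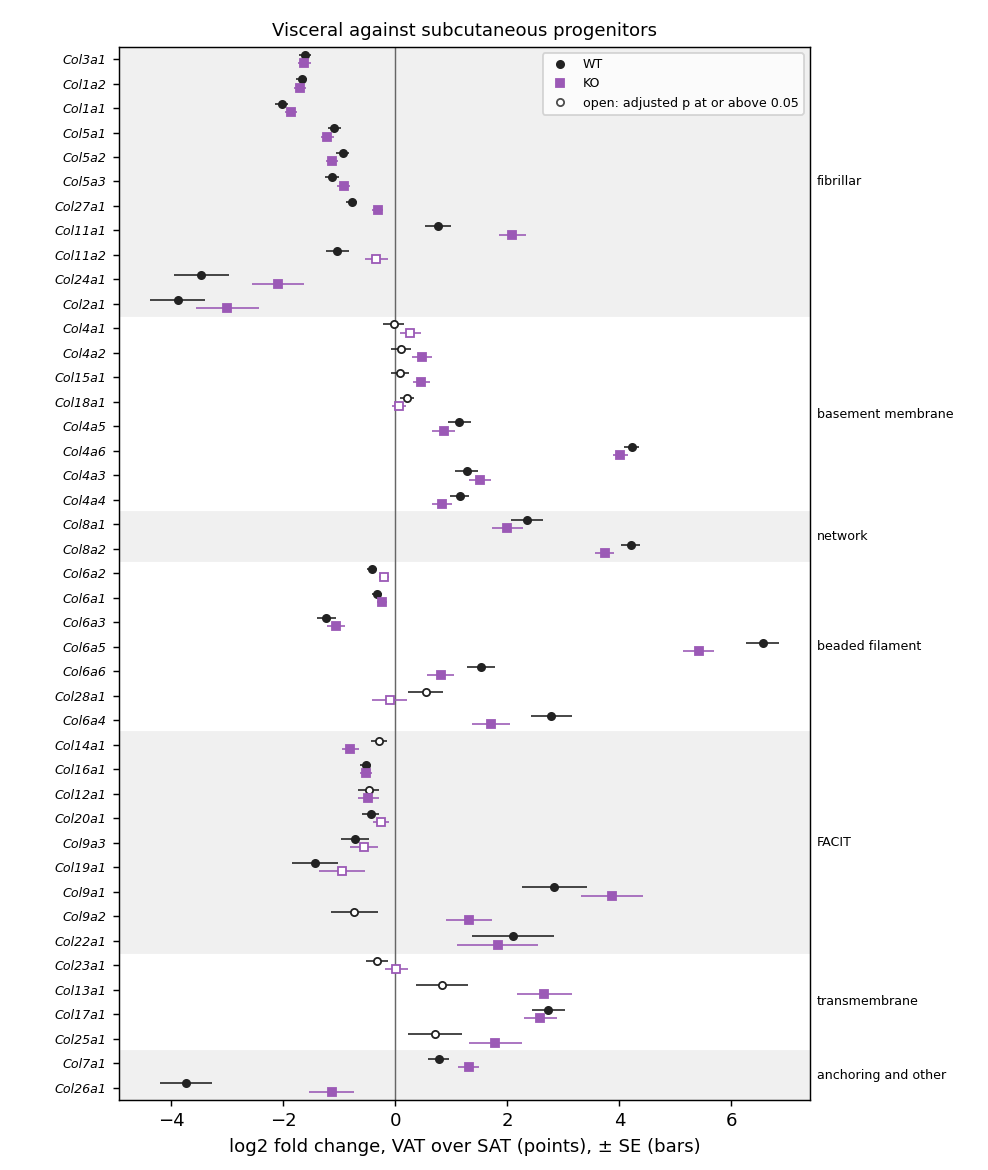
Log2 fold change of VAT over SAT for the 43 tested collagen genes in WT (circles) and KO (squares), with bars for ± SE, and filled symbols for adjusted p under 0.05. Fibrillar genes other than Col11a1 lie left of 0, type IV genes Col4a3 to Col4a6 and the type VIII genes lie right of 0, and Col6a5 is farthest to the right at 6.55 in WT.

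FACIT collagens had no common direction between depots. Of 9, 2 rose and 4 fell in WT, and 3 rose and 3 fell in KO. Col16a1, which attaches to fibres in skin and other tissues, fell by 0.53 ± 0.10 on the log2 scale in WT (adjusted p = 0.000463) and by 0.52 ± 0.10 in KO (adjusted p = 0.000416; 0.120 when scaled by library totals). Col14a1 was called in KO (-0.80 ± 0.15, adjusted p = 0.000272) and not in WT (-0.29 ± 0.15, adjusted p = 0.140), with adjusted p = 0.249 for the difference. Col12a1, its close relative in tendon and muscle, was called in KO at adjusted p = 0.0488 (-0.48 ± 0.19), a call that depended on the fit. DESeq2 and a fit to the KO libraries alone kept it (adjusted p = 0.0350 and 0.0132). It was lost with RLE scaling (0.0512), library totals (0.583), no filter (0.0542) and the replicate number as a block (0.0786). With 1 library left out it was lost in 11 of 16 cases (adjusted p between 0.0513 and 0.135) and kept without WT SAT 3 or 4, WT VAT 2, KO SAT 4 or KO VAT 3. In WT it had -0.47 ± 0.19 (adjusted p = 0.0596). Col9a1, a chain of cartilage type IX collagen, rose at low levels, from 0.0457 to 0.212 CPM in WT SAT to 0.330 to 1.39 CPM in WT VAT (2.84 ± 0.58, adjusted p = 0.000938), with 3.87 ± 0.55 in KO (adjusted p = 2.19e-05). Col9a2 was called in KO and not in WT (1.31 ± 0.42, adjusted p = 0.0163; 0.0863 without KO VAT 4), with -0.73 ± 0.42 in WT. Col22a1, with no more than 27 counts in a library, rose by 2.10 ± 0.74 in WT and 1.83 ± 0.72 in KO. Its WT call was lost without WT SAT 1, 2 or 3 or WT VAT 2 or 3 (adjusted p between 0.0725 and 0.143, log2 fold change 1.53 to 3.27). It was also lost with no filter (0.0536) and with the replicate number as a block over all libraries (0.0516) or within genotype (0.0870). Its KO call was lost without 11 of the 16 libraries in turn (adjusted p between 0.0505 and 0.116), the exceptions being WT SAT 2 or 4, WT VAT 2 or 4 and KO VAT 2. With no filter it had adjusted p = 0.0806, and with the blocks 0.0657 and 0.0812. The WT calls of Col9a3 (-0.72 ± 0.25) and Col20a1 (-0.44 ± 0.15) were lost when scaled by library totals (0.177 and 0.458), with no filter (0.0638 and 0.0513) and in a fit to the WT libraries alone (0.0673 and 0.0548). They were also lost without WT SAT 3 or 4 or WT VAT 1, 2 or 3 for Col9a3 (adjusted p between 0.0598 and 0.0988), and without WT SAT 4 or WT VAT 1, 3 or 4 for Col20a1 (adjusted p between 0.0561 and 0.103).

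Of the 4 transmembrane collagens, which are shed from the cell surface, Col17a1 was called in both genotypes. This chain anchors epithelial cells to their basement membrane, and it stood at 0.228, 0.306, 0.334 and 0.354 CPM in WT SAT and 2.10, 1.91, 1.66 and 2.45 CPM in WT VAT (2.73 ± 0.30, adjusted p = 1.28e-06). In KO it stood at 0.168, 0.544, 0.253 and 0.365 CPM in SAT and 1.74, 1.76, 1.90 and 2.63 CPM in VAT (2.59 ± 0.29, adjusted p = 1.50e-06). All visceral libraries were above all subcutaneous ones in both genotypes. Col13a1 and Col25a1 were called higher in VAT in KO (2.66 ± 0.49 and 1.78 ± 0.47) and not in WT (0.84 ± 0.47 and 0.70 ± 0.48), and the difference between genotypes was not called (adjusted p = 0.210 and 0.433). Col7a1, the anchoring fibril chain of skin, rose by 0.77 ± 0.19 in WT (adjusted p = 0.00315) and 1.31 ± 0.19 in KO (adjusted p = 1.91e-05). Col26a1 fell by 3.74 ± 0.47 on the log2 scale in WT (adjusted p = 6.29e-06) and by 1.13 ± 0.40 in KO (adjusted p = 0.0305). The KO call of Col26a1 was lost without KO SAT 1 or 4 or KO VAT 1 or 3 (adjusted p between 0.0589 and 0.0916) and when scaled by library totals (0.101).

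Markers of other cell types moved with depot. All 8 mesothelium markers were called higher in VAT in both genotypes, and their summed level was 7.35 to 10.4 CPM (WT) and 6.62 to 9.50 CPM (KO) in SAT, and 804 to 1559 CPM (WT) and 795 to 1524 CPM (KO) in VAT. Mesothelium is the cell layer that covers visceral fat, and its markers were low in SAT, with 0 CPM of Muc16 in every subcutaneous library. Of 11 pericyte and smooth muscle markers 8 in WT and 9 in KO were called higher in VAT, with sums of 2889 to 4833 CPM in WT SAT and 5718 to 6185 CPM in WT VAT. In KO these sums were 2304 to 3197 CPM in SAT and 5336 to 6808 CPM in VAT. Of 7 Schwann cell markers 6 were lower in VAT in each genotype, with sums of 423 to 768 CPM in SAT and 56.0 to 73.8 CPM in VAT of WT, and of 371 to 505 and 39.6 to 58.0 CPM in KO. Endothelial markers summed to 205 to 231 CPM in WT SAT and 119.8 to 133 in WT VAT, and of 8 markers 3 were higher and 1 lower in VAT in WT, with 4 higher and 1 lower in KO. In KO the endothelial sums were 229 to 308 CPM in SAT and 94.5 to 114 in VAT. The marker called lower, Tek, held most of these sums, at 193 to 215 CPM in WT SAT and 71.7 to 89.7 in WT VAT. The fall of the sums thus follows Tek and not the markers called higher, Pecam1, Kdr and Emcn in WT. Sums over 6 epithelium markers, of which 4 were tested and 3 were higher in VAT in each genotype, were 1.48 to 5.30 CPM in WT SAT and 31.8 to 53.9 in WT VAT. In KO the epithelium sums were 1.68 to 3.34 CPM in SAT and 18.8 to 74.7 in VAT. Over 6 cartilage and tendon markers, of which 5 were tested, 2 were higher in VAT in each genotype and 1 lower in WT, with sums of 18.2 to 24.8 CPM in WT SAT and 62.0 to 72.5 in WT VAT. In KO the cartilage and tendon sums were 12.2 to 17.5 CPM in SAT and 68.2 to 94.2 in VAT. Sox9 alone held 55.2 to 62.9 CPM in WT VAT. The part of these cells in the collagen differences was not tested. Macrophage sums stayed at or below 34.9 CPM and skeletal muscle sums at or below 28.9 CPM in every library. The highest epithelium and skeletal muscle sums were both in KO VAT 4. That library also held the highest KO VAT levels of Col9a1, Col9a2, Col11a1, Col13a1, Col23a1 and Col25a1, and the lowest of Col1a1, Col1a2 and Col3a1. A link between these was not tested. Of 6 macrophage markers 3 in WT and 2 in KO were called higher in VAT, and of 4 tested skeletal muscle markers 1 was lower in each genotype. Of the 8 progenitor markers 5 in WT and 6 in KO were called lower in VAT and 1 (Pdgfrb) higher.

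Scaling also moved the depot comparison as a whole. When libraries were scaled by their totals alone, the median log2 fold change over all genes moved to 0.295 in WT and 0.363 in KO. The collagen calls became 16 higher and 14 lower in WT and 21 higher and 10 lower in KO, so the higher share of the KO calls went from 55.9% to 67.7%. With this scaling Col1a1 stood at -1.73 in WT and -1.51 in KO, and Col1a1, Col1a2 and Col3a1 were all called lower in VAT in both genotypes.

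Within a library, the ratio of chain genes does not depend on library scaling. Col1a1 over Col1a2, each per transcript length, was 0.943, 0.925, 0.847 and 0.957 in WT SAT and 0.722, 0.743, 0.696 and 0.711 in WT VAT. In KO it was 0.899, 0.884, 0.924 and 0.889 in SAT and 0.7608, 0.8022, 0.8289 and 0.8293 in VAT. Every visceral library was below every subcutaneous one of its own genotype, and the KO VAT libraries were all above the WT VAT libraries. Col3a1 and Col1a1 are chains of different collagen types. Col3a1 over Col1a1 was 1.98 to 2.05 (WT) and 2.10 to 2.22 (KO) in SAT, and 2.47 to 2.95 (WT) and 2.23 to 2.71 (KO) in VAT, higher in every visceral library than in any subcutaneous one. Col4a1 over Col4a2 was 1.74 ± 0.0267 (WT) and 1.76 ± 0.0372 (KO) in SAT, and 1.59 ± 0.00798 (WT) and 1.52 ± 0.0498 (KO) in VAT (SD, n = 4), again with no overlap between depots. Col6a3 over Col6a1 was 0.415 ± 0.0655 (WT) and 0.463 ± 0.0387 (KO) in SAT, and 0.224 ± 0.0111 (WT) and 0.260 ± 0.0242 (KO) in VAT. The ratios Col5a1 over Col5a2 and Col6a1 over Col6a2 stayed near 1 in all groups, from 0.930 to 1.10 and from 0.982 to 1.14. These ratios are descriptions and were not tested.

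**Figure D4:**
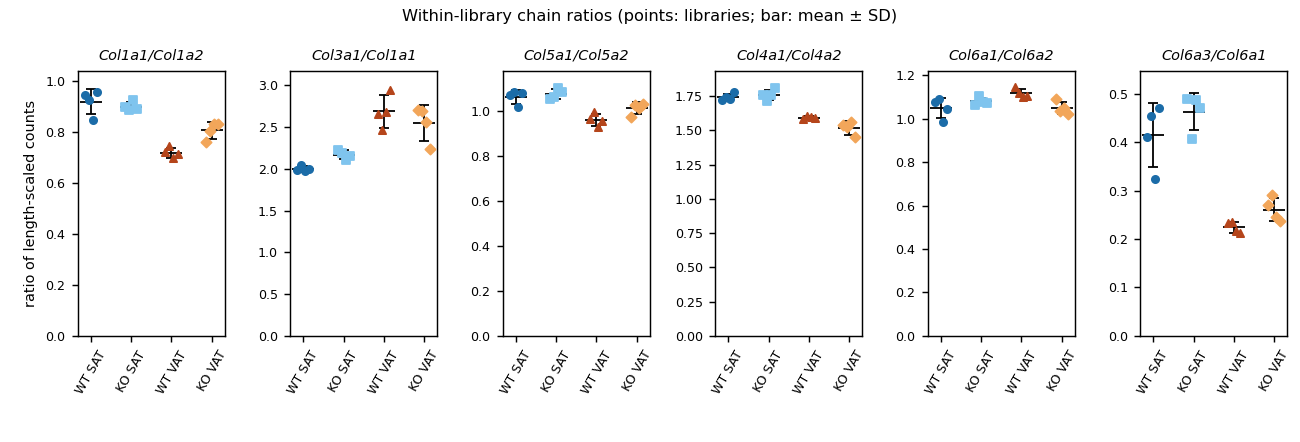
Ratio of length-scaled counts of paired collagen chains within each library, with 1 point per library and bars for the mean ± SD of 4 libraries per group. Col6a3 over Col6a1 falls from at least 0.324 in SAT to at most 0.290 in VAT, while Col5a1 over Col5a2 and Col6a1 over Col6a2 stay near 1.

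Between KO and WT progenitors of SAT, 2 collagen genes rose and 1 fell. The 3 calls are 7.0% of the 43 tested, a share near the 5.89% called among all tested genes (3.46% higher and 2.43% lower). The median log2 fold change of the collagen genes was 0.048, against -0.0103 over all genes. Col6a5 went up from 21.2, 16.0, 13.7 and 15.4 CPM in WT SAT to 23.9, 45.1, 31.0 and 27.4 CPM in KO SAT, with no overlap (0.94 ± 0.24, adjusted p = 0.0259). Col14a1, a FACIT collagen that regulates fibre growth in skin and tendon, went up from 1056, 1036, 921 and 1349 CPM to 1345, 1769.8, 1497 and 1645 CPM, where the lowest KO library lay just below the highest WT library (0.52 ± 0.15, adjusted p = 0.0462). Col2a1 went down from 0.502, 1.35, 1.37 and 1.16 CPM to 0.384, 0.544, 0.138 and 0.244 CPM with overlapping ranges (-1.74 ± 0.42, adjusted p = 0.0221). No library held more than 53 of its counts. The gene lies 3.25 Mb from Nr4a1 on chromosome 15 (chr15:97975602-98004695, against chr15:101254269-101274795), where the targeted strain can carry 129S2 DNA. That DNA and the loss of Nr4a1 cannot be told apart there. Col14a1 lies on the same chromosome at a distance of 45.73 Mb.

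None of the 3 calls held in every fit. The Col6a5 call was lost without WT SAT 2, 3 or 4 or KO SAT 2 or 3 (adjusted p between 0.055 and 0.101). The Col2a1 call was lost without WT SAT 2 or 3 or KO SAT 3 or 4 (adjusted p between 0.0547 and 0.09) and in a fit to the SAT libraries alone (0.0645). The Col14a1 call was lost without WT SAT 1, 2 or 3, WT VAT 1, 2 or 4, KO SAT 2, 3 or 4 or KO VAT 1 or 2 (adjusted p between 0.0515 and 0.139), in the fit to SAT alone (0.0665), without a filter on low counts (0.0573) and with the replicate number as a block (0.0724). Beside these genes, 1 of 11 pericyte and smooth muscle markers was called lower in KO SAT (Tagln, -0.56 ± 0.16, adjusted p = 0.0487), with marker sums of 2889 to 4833 CPM in WT and 2304 to 3197 CPM in KO. Schwann marker sums were 423 to 768 CPM in WT and 371 to 505 CPM in KO, with 0 of 7 called. The endothelial marker Kdr (0.95 ± 0.24, adjusted p = 0.0248) and the progenitor marker Lum (0.36 ± 0.10, adjusted p = 0.0417) were called higher in KO SAT. Each was the 1 called gene of 8 in its list. The median log2 fold change was below 0 in both lists, at -0.195 for endothelium and -0.073 for progenitors. The part of these cells in the collagen values was not tested.

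The type I and III genes stood higher in KO SAT without passing the test in the main fit. The fibrillar class took 12.7% to 16.1% of the counts in WT SAT and 16.7% to 19.1% in KO SAT, so the groups did not overlap. The class did not rise gene by gene. Of its 11 genes 5 had a positive log2 fold change and 6 a negative one, with a median of -0.058. Col3a1 was above every WT library in every KO library (0.35 ± 0.11, interval 0.11 to 0.59, adjusted p = 0.0761). Col1a2 likewise did not overlap (0.26 ± 0.10, adjusted p = 0.141), while Col1a1 did (0.23 ± 0.11, adjusted p = 0.224). DESeq2 called Col3a1 higher in KO SAT (adjusted p = 0.0129), and across all fits its adjusted p ran from 0.0129 to 0.207. By edgeR Col3a1 was called higher with libraries scaled by their totals alone and without KO VAT 4. In all, 7 of 43 collagen genes (16.3%) had groups that did not overlap, where 14.7% of all tested genes did not. DESeq2 called 6 of 43, 4 higher and 2 lower, against 11.2% of the genes to which it gave an adjusted p. Among them Col11a1 was lower in KO SAT (-0.73 ± 0.24, adjusted p = 0.0878 by edgeR, DESeq2 0.0348). By edgeR Col11a1 was called without WT SAT 3 (0.0445) or WT VAT 4 (0.0360). Basement membrane genes lay on both sides of 0 with none called, Col4a1 at -0.34 ± 0.19 and Col4a4 at 0.37 ± 0.17. The type VIII genes had 0.59 ± 0.28 for Col8a1 and 0.56 ± 0.18 for Col8a2, and Col8a2 was called by DESeq2 (adjusted p = 0.0266).

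**Figure D5:**
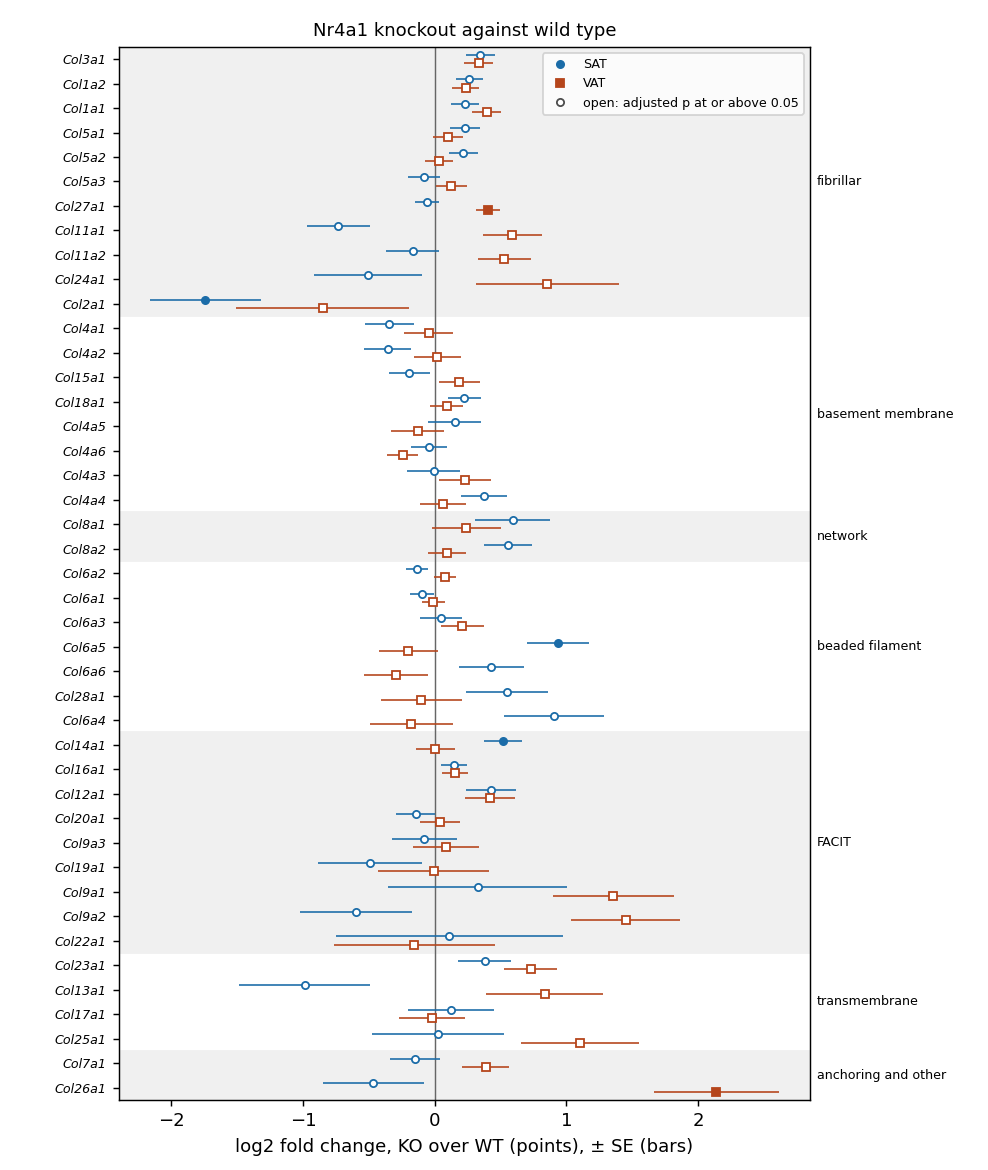
Log2 fold change of KO over WT for the 43 tested collagen genes in SAT (circles) and VAT (squares), with bars for ± SE, and filled symbols for adjusted p under 0.05. Filled symbols are Col2a1, Col6a5 and Col14a1 in SAT and Col27a1 and Col26a1 in VAT, and Col3a1, Col1a2 and Col1a1 lie right of 0 in both depots with open symbols.

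In VAT, 2 collagen genes rose in KO against WT and none fell by edgeR. This is 4.7% of the 43 tested, near the 4.10% called among all tested genes (2.84% higher and 1.26% lower). At unadjusted p under 0.05 there were 13 collagen genes, 30.2% of them, where 17.4% of all tested genes were. DESeq2 called 6 higher and 0 lower, against 7.56% of all genes to which it gave an adjusted p. Col27a1 went up from 32.5, 37.1, 35.8 and 36.4 CPM in WT VAT to 45.5, 48.4, 41.8 and 52.1 CPM in KO VAT with no overlap (0.41 ± 0.09, adjusted p = 0.0192). This call was lost without WT VAT 1 or KO VAT 2 or 4 (adjusted p between 0.0536 and 0.074). Col26a1, a small secreted chain first described in testis and ovary, went up from 0.217, 0.290, 0.317 and 0 CPM to 0.548, 1.25, 0.893 and 0.961 CPM (2.14 ± 0.47, adjusted p = 0.0154). Every KO VAT library exceeded every WT VAT library at under 2 CPM, with WT VAT 4 at 0 counts, and the call held without any single library but not in a fit to the VAT libraries alone (adjusted p = 0.0925, with 3.14e-06 to 0.0925 over all fits).

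The type I and III genes again stood higher in KO. Col1a1 in KO VAT, at 12363 to 13376 CPM, lay above all WT VAT libraries, at 8315 to 11564 CPM (0.40 ± 0.11, 1.32-fold, adjusted p = 0.0519), just short of a call. DESeq2 called it (adjusted p = 0.00480), and over all fits its adjusted p ran from 0.00480 to 0.160. Col3a1 had 0.33 ± 0.11 (adjusted p = 0.107) with ranges that overlapped in 1 library, KO VAT 4. DESeq2 called Col3a1 higher in KO VAT. So did edgeR with libraries scaled by their totals alone and without WT SAT 3 or KO VAT 4. Col1a2 had 0.24 ± 0.10 (adjusted p = 0.239). The fibrillar class took 6.65% to 7.65% of the counts in KO VAT, above its 5.15% to 6.26% in WT VAT with no overlap. Of all 43 genes 31 had a positive log2 fold change and 12 a negative one, with a median of 0.10 against -0.0043 over all tested genes. The groups did not overlap for 6 of the 43 genes (13.95%), where they did not for 13.7% of all tested genes. Among the 6 were Col9a2 (1.45 ± 0.42, adjusted p = 0.0603), Col11a1 (0.59 ± 0.22, adjusted p = 0.171) and Col11a2 (0.53 ± 0.20, adjusted p = 0.177). Type IV, VI and VIII chains had no call in either direction, with Col6a5 at -0.20 ± 0.23 (adjusted p = 0.722) and Col4a6 at -0.24 ± 0.12 (adjusted p = 0.306). Among marker lists in KO VAT, 1 of 6 macrophage genes, Cd68, was called higher (0.60 ± 0.16, adjusted p = 0.0491). The median log2 fold change of the macrophage list was -0.24. Its sums overlapped, at 24.9 to 31.9 CPM in WT VAT and 20.6 to 34.9 CPM in KO VAT. No marker of mesothelium, pericytes, endothelium, epithelium, cartilage or muscle was called. The part of these cells was not tested.

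The knockout effects of the depots were compared with the interaction, the effect in VAT minus that in SAT. By edgeR's quasi-likelihood test 0 of 43 collagen genes were called, where 0.267% of all tested genes were, with 9 (20.9%) at unadjusted p under 0.05 where 16.0% of all tested genes were. DESeq2 called 5, against 4.05% of all genes to which it gave an adjusted p. The 5 differences with the smallest p were those of Col26a1 (2.60 ± 0.61, adjusted p = 0.0780), Col11a1 (1.32 ± 0.33, adjusted p = 0.0840), Col27a1 (0.46 ± 0.13, adjusted p = 0.116), Col6a5 (-1.14 ± 0.33, adjusted p = 0.120) and Col9a2 (2.05 ± 0.59, adjusted p = 0.123). DESeq2 gave these genes adjusted p of 0.000104 for Col26a1, 0.00895 for Col11a1, 0.0307 for Col27a1, 0.0206 for Col6a5 and 0.0250 for Col9a2. Col11a1 had opposite signs, with -0.73 ± 0.24 in SAT and 0.59 ± 0.22 in VAT and no overlap between genotypes in either depot. Without WT VAT 4, edgeR called Col26a1 (adjusted p = 0.0412).

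Many genes of collagen assembly were also lower in VAT. Of 18 genes of hydroxylation and folding, which modify the chains in the endoplasmic reticulum before they fold, 15 fell and 1 rose in VAT in WT, and 14 fell and 1 rose in KO, beside the shares of all genes called lower given above. The list's median log2 fold change was -0.40 in WT and -0.39 in KO. Serpinh1, the collagen chaperone HSP47, fell by 1.01 ± 0.08 on the log2 scale in WT (adjusted p = 2.89e-08), from 3049 CPM or more in WT SAT to 1843 CPM or less in WT VAT. The prolyl hydroxylase subunits P4ha1, P4ha2 and P4ha3, which stabilise the helix, had log2 fold changes in WT of -0.59 ± 0.06, -1.32 ± 0.09 and -4.79 ± 0.54. P4ha3 was rare, at 1.20 to 2.55 CPM in WT SAT and 0.0194 to 0.0830 CPM in WT VAT. No WT VAT library held more than 4 of its counts. Of 9 secretion genes 5 fell in WT and 6 in KO and none rose, including Mia3, which loads procollagen into transport carriers (-0.48 ± 0.09 in WT), and Creb3l1, a transcription factor for secretory and collagen genes (-0.76 ± 0.08).

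Of 8 genes of propeptide processing, which trim procollagen outside the cell, 4 fell and 2 rose in VAT in each genotype. Bmp1, the C-proteinase, fell by 0.92 ± 0.09 on the log2 scale in WT (adjusted p = 2.30e-07), and its enhancers Pcolce and Pcolce2 had -1.39 ± 0.11 and -1.90 ± 0.14. Adamts3, an N-proteinase, rose by 2.60 ± 0.17 (adjusted p = 1.99e-09). Of 5 crosslinking enzymes 4 fell in each genotype, Loxl1 to Loxl4, with Loxl1 at -0.94 ± 0.10 in WT (adjusted p = 6.68e-07), while Lox itself was not called (-0.08 ± 0.14). Of 10 receptor and uptake genes 9 were tested, of which 3 rose and 3 fell in VAT in WT, and 3 rose and 4 fell in KO. The collagen receptor kinase Ddr1 rose by 1.64 ± 0.11 in WT (adjusted p = 5.28e-09), and the integrin subunits Itga11 and Itga2 and the uptake receptor Mrc2 had -1.26 ± 0.14, -1.75 ± 0.28 and -0.77 ± 0.08.

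Between KO and WT, 2 of 18 genes of hydroxylation and folding and 1 of 8 of propeptide processing were called in SAT. In VAT 1 of 9 tested receptor and uptake genes was called, and the other lists had no call. Of all tested genes 5.89% were called in SAT and 4.10% in VAT. In SAT, P4ha3 went up by 1.62 ± 0.37 (adjusted p = 0.0153), Plod2, a lysyl hydroxylase of crosslink sites, by 0.67 ± 0.17 (adjusted p = 0.0249) and Tll1, a relative of Bmp1, by 0.99 ± 0.23 (adjusted p = 0.0153), and no gene of the 5 lists was called lower. In VAT, Itga11, an integrin subunit that binds fibrillar collagen, went down by 0.84 ± 0.14 on the log2 scale (adjusted p = 0.00161), and no gene of the lists was called higher. P4ha3 stood at 1.51, 2.55, 1.20 and 1.23 CPM in WT SAT and 6.79, 4.04, 5.31 and 3.88 CPM in KO SAT, with no overlap. Itga11 stood at 50.6, 62.0, 51.5 and 54.2 CPM in WT VAT and 33.9, 33.0, 32.6 and 22.4 CPM in KO VAT, also with no overlap. Serpinh1 was called in neither depot (0.11 ± 0.08 in SAT and 0.05 ± 0.08 in VAT).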

How the data were processed

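RNA of 16 adipose progenitor samples was sequenced with a NEBNext Ultra kit and single reads on a NextSeq 500, per the labels' protocols. The deposited table holds raw counts per gene made by the authors. STAR, featureCounts, FastQC and DESeq and the build mm10 are named per the submitters' processing notes, without versions, and the annotation and the strand setting of the counting were not found in these sources. A second deposited table of normalized values was not used.

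Low counts were filtered with edgeR's filterByExpr, which left 16842 of 38720 genes. One model with 4 group means was fitted to all 16 libraries by edgeR's quasi-likelihood test (edgeR 4.0.16, limma 3.58.1, R 4.3.3) after TMM scaling, with 12 residual degrees of freedom, a biological coefficient of variation of 0.156 and Benjamini-Hochberg adjustment over all tested genes. Calls were made at an adjusted p under 0.05. Intervals of log2 fold changes are 95% intervals. Contrasts were the knockout effect within SAT and within VAT, the depot effect within WT and within KO, and the difference of both knockout effects. CPM are TMM-scaled, RPKM divide them by the longest GENCODE transcript, and class shares are shares of raw counts. Total counts of 34655519 to 55551845 per library set the depth, and counting error is largest for genes with few counts.

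Values in every library are given for the 6 collagen genes with the highest mean CPM and, in each comparison, for up to 12 called genes with the smallest p. From each pathway list up to 4 called genes per comparison were named by smallest p, and from each cell type list up to 3 by mean CPM. Genes named beyond this rule were chosen after their values were seen. The members, gene classes and lists were chosen with earlier results of these data known. The fit was tested on simulated data for KO against WT in SAT with 16490 genes, and it recovered 98% of 50 genes raised by a log2 fold change of 1 and 100% of 50 genes each at -1, 2 and -2. The changed genes were drawn from those with a mean above 1 CPM, and all genes shared a coefficient of variation of 0.156. Recovery of rarer or more variable genes, as some collagen genes are, was not tested. Alternatives were other scalings, no filter, DESeq2 1.42.0, fits to the groups compared alone, a replicate block and leaving out each library. Promoter windows came from RefSeq (GRCm38.p6). Tables and figures were made with Python 3.11.15, numpy 2.4.6, pandas 2.3.3, scipy 1.17.1 and matplotlib 3.10.9. The result of 1 marker gene is not reported here.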

Additional observations from a re-analysis of the deposited data

Results flagged for a closer look

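In 5 of the 172 sets of 4 libraries (43 collagen genes in 4 groups), 2.9%, the highest or lowest library stood apart from the other libraries of its group by Dixon's criterion, which chance gives in about 1 in 20 sets. Col11a1 stood at 11.2 CPM in KO VAT replicate 4, above 7.67 to 8.20 CPM in the other KO VAT libraries. Col18a1 stood at 536 CPM in the same library, below 613 to 618 CPM in the others. Col20a1 stood at 11.4 CPM in WT SAT replicate 4, above 8.81 to 9.06 CPM. Col6a4 stood at 0.893 CPM in WT SAT replicate 2, above 0.501 to 0.525 CPM. Col9a1 stood at 0.384 CPM in KO SAT replicate 1, above 0.0777 to 0.102 CPM.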

How the results depend on the processing

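Of 1696 values of called collagen genes under the alternatives, 1582 kept their direction and call, 112 kept only the direction and 2 reversed, both with library totals as the scale in KO depots (Col27a1 at 0.0336 and Col6a1 at 0.1055 on the log2 scale). For KO against WT in SAT, 2 higher calls became 1 without a filter, 4 with DESeq2 and 1 in the fit to SAT alone. The 1 lower call became 2 with DESeq2 and 0 in the fit to SAT alone. With library totals no SAT call was lost and Col3a1 was also called higher. In VAT, 2 higher calls became 5 with library totals, 6 with DESeq2 and 1 in the fit to VAT alone. For the interaction DESeq2 gave 4 higher and 1 lower where edgeR gave 0. Leaving out 1 library gave 0 to 3 higher and 0 to 2 lower calls in SAT, 1 to 6 higher in VAT, 0 to 1 higher for the interaction, 13 to 14 higher and 16 to 18 lower between WT depots, and 16 to 19 higher and 12 to 16 lower between KO depots. The SAT count of higher genes was 0 without WT SAT 3 or KO SAT 2 or 3 and 1 without WT SAT 1, 2 or 4, WT VAT 1, 2 or 4, KO SAT 4 or KO VAT 1 or 2, and its lower count was 0 without WT SAT 2 or KO SAT 3 or 4 and 2 without WT VAT 4. The VAT count was 6 without WT SAT 3, 4 without WT VAT 3 and 1 without WT VAT 1 or KO VAT 2. The cause of these changes was not tested. With the replicate number as a block, SAT had 1 higher and 1 lower call, VAT 2 and 0, the WT depots 13 and 18, the KO depots 17 and 14, and the interaction 0. With the block within genotype, the WT depots had 13 and 18, the KO depots 18 and 15, and the interaction 0. The samples share only a number: same-numbered libraries of different groups correlated from -0.16 to 0.176 in their deviations from the group means, 4 of 24 pairs above 0.1. Of these, 3 were among the 4 pairs of WT SAT with WT VAT (-0.041 to 0.144), where 1 of 12 pairs with different numbers was above 0.1. The fourth WT pair was not, and the best partner had the same number in 17 of 48 cases. Col2a1 had at most 53 counts in a library and Col22a1 at most 27.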
